A study of Mus musculus with 6 samples.

Results

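Matrix metalloproteinases and their tissue inhibitors were measured in the soleus, a slow postural muscle of the hindlimb, of 6 WT mice of strain 129/SV. Members were chosen by the array's annotation, as the spots that name Mmp2, Mmp3, Mmp9, Mmp10, Mmp11, Mmp14, Timp1, Timp2 or Timp3. Each of these 9 genes had 1 spot, among 203 named genes and 223 spots on the array. Every mouse had spent 7 days with unloaded hindlimbs and then 1 day with the muscle loaded again, and no unloaded or untouched muscle was included, so no effect of loading could be computed. Total RNA of sections through the middle of the muscle was read on 1 low-density radioactive array per mouse, so spread between mice and spread between arrays cannot be told apart.

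Metalloproteinases are zinc enzymes that cut collagens, laminins, fibronectin and other matrix proteins, and most are made as inactive precursors. The Timp proteins block them by binding the active site. In muscle this balance takes part in the turnover of the basement membrane around fibres and in the passage of satellite cells, fibroblasts and leukocytes through it.

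Upstream sequence was found for 7 of the 9 genes in RefSeq (mouse build GRCm38.p6), not for Mmp2 and Mmp9. The 120 bases just before the annotated start are shown for 4 genes: the stromelysins Mmp3 and Mmp10, whose spots were clear of the lowest signals of the array in no mouse, and the inhibitors Timp2 and Timp3, the only members that stood clear of them in every mouse. Capitals mark matches, on either strand, to TGANTCA (the AP-1 element bound by Jun and Fos proteins), TATAAA (the TATA box) or GGGCGG (a GC box). Windows are written 5′ to 3′ on the strand of the gene.
Mmp3, chr9:7445702-7445821, plus strand: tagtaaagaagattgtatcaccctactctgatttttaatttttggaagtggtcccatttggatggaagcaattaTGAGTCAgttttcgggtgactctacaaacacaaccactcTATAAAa
Mmp10, chr9:7502222-7502341, plus strand: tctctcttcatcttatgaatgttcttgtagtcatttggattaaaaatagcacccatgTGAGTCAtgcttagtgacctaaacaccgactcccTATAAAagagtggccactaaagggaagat
Timp2, chr11:118355412-118355531, minus strand: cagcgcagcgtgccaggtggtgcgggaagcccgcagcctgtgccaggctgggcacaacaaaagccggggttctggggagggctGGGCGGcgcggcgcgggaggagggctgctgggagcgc
Timp3, chr10:86300292-86300411, plus strand: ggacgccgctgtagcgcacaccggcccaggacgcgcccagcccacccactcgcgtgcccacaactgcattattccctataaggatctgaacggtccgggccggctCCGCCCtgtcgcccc
Counting the base before the start as -1, the AP-1 match began at -46 in Mmp3 and at -63 in Mmp10, and the TATA match at -7 and at -29. Of 32851 RefSeq windows of the same length, 3.41% held the AP-1 letters, 6.34% the TATA letters and 26.5% the GC box letters. The GC box letters were found in Timp2, Timp3, Timp1, Mmp11 and Mmp14 and in neither stromelysin. The G and C share of the window was 35.8% in Mmp3, 39.2% in Mmp10, 75% in Timp2 and 69.2% in Timp3, beside a median of 54.2% over all windows. It was also 69.2% in Mmp11 and 54.2% in Mmp14, both clear in no mouse, and 65% in Timp1, clear in 1 mouse. A match describes these letters and says nothing about binding in this muscle.

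The deposited signal is linear and is given here as parts per mille of an array's total over 221 spots, a scale found from the values. Values come in steps of 0.1 per mille. The 10th percentile of each array, called its floor, was lowest in sample 202, at 0.5 per mille, highest in samples 177 and 178, at 0.7, and 0.6 in the other 3 samples (175, 176 and 203). A spot at 2 or more times the floor of its array was called clear of it. A spot below that cannot be read as expressed or as silent, and spots of different genes were not ranked by level because they differ in labelling and hybridisation. All 7 measured fibre markers were clear in every mouse, beside 25.6% of all spots. They include genes of slow and of fast fibres, so they bear out skeletal muscle in general and not soleus in particular.

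Proteases and inhibitors differed in how they stood to the floor. All 6 metalloproteinases stayed under 2 times the floor in all mice, whereas Timp2 and Timp3 were clear of it in all mice and Timp1 in 1 of 6. Over the whole array 25.6% of spots were clear in every mouse and 54.3% in none, so neither 2 of 9 members clear throughout nor 6 of 9 clear in none sets the members apart from the array. Both members that were clear throughout were inhibitors, which is a description of 3 spots and was not tested.

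**Figure D1:**
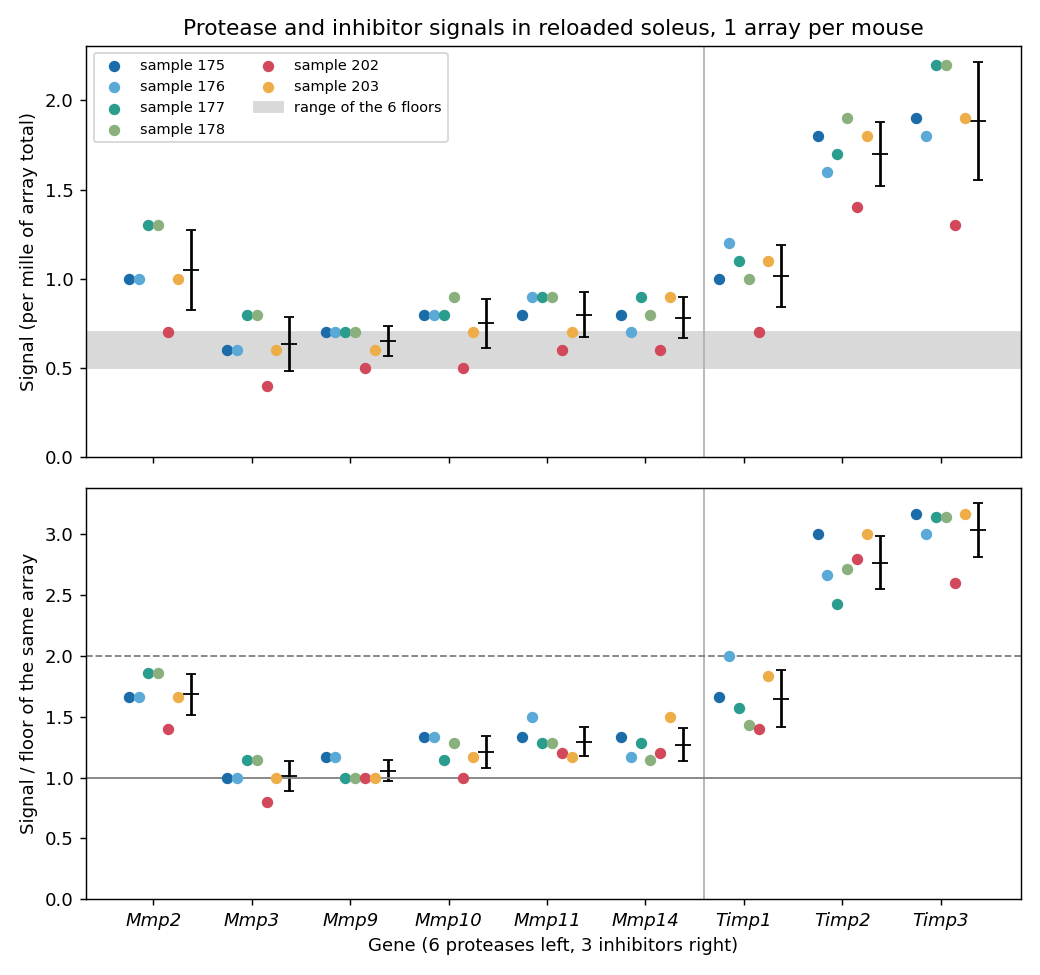
Signal of the 6 proteases and 3 inhibitors in each of 6 mice (coloured points), as parts per mille of the array total (upper panel, grey band for the range of the 6 floors) and divided by the floor of the same array (lower panel, lines at 1 and 2 times the floor), with black marks for mean ± SD (n = 6). All points of Timp2 and Timp3 lie above 2 times the floor, and no protease point does.

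Among the inhibitors, Timp3, which binds to the extracellular matrix and also blocks some ADAM proteases, gave 1.9, 1.8, 2.2, 2.2, 1.3 and 1.9 per mille in samples 175, 176, 177, 178, 202 and 203. Sample 202 was low and samples 177 and 178 were high. Its signal was 3.04 ± 0.223 times the floor (SD, n = 6), from 2.60 in sample 202 to 3.17 in samples 175 and 203.

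Timp2, which inhibits metalloproteinases broadly and also forms the complex in which Mmp14 activates the Mmp2 precursor, gave 1.8, 1.6, 1.7, 1.9, 1.4 and 1.8 per mille in the same order of samples. Sample 202 was again lowest, although closer to the rest. Relative to the floor Timp2 stood at 2.77 ± 0.218 times (SD, n = 6), and here sample 202, at 2.80, lay inside the range of the others, whose lowest was sample 177 at 2.43. Rounding of signal and floor to the step could lower these ratios to no less than 2.20 for Timp2 and 2.27 for Timp3.

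Timp1, a soluble inhibitor known to be induced in injured and inflamed tissue, gave 1.0, 1.2, 1.1, 1.0, 0.7 and 1.1 per mille. It reached 2 times the floor in sample 176 alone and stood at 1.65 ± 0.234 times over all mice (SD, n = 6). In sample 176 it was exactly on the limit, and rounding would allow from 0 to 2 clear mice. Its pattern differed from that of Timp3 in that sample 176, not samples 177 and 178, was highest.

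The gelatinases cut denatured collagen and the collagen of basement membranes. Mmp2, the constitutive gelatinase of fibroblasts, gave 1.0, 1.0, 1.3, 1.3, 0.7 and 1.0 per mille, which was 1.69 ± 0.168 times the floor (SD, n = 6). Its highest ratio was 1.86, in samples 177 and 178, where rounding would allow up to 2.08, so a clear signal in those 2 mice cannot be told from one just below. No other protease could reach 2 times the floor within rounding.

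Mmp9, the gelatinase of neutrophils and macrophages, gave 0.7 per mille in samples 175 to 178, 0.5 in sample 202 and 0.6 in sample 203. Its ratio was 1.06 ± 0.0861 times the floor (SD, n = 6), and in 4 of 6 mice the spot equalled the floor. No marker of neutrophils or macrophages fixed for this work was measured here, so the part of those cells was not tested.

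The stromelysins Mmp3 and Mmp10 cut proteoglycans, laminin and fibronectin and can activate other metalloproteinases. Mmp3 gave 0.6, 0.6, 0.8, 0.8, 0.4 and 0.6 per mille, or 1.01 ± 0.126 times the floor (SD, n = 6). Mmp10 gave 0.8, 0.8, 0.8, 0.9, 0.5 and 0.7 per mille, or 1.21 ± 0.132 times the floor (SD, n = 6). Mmp3 thus lay within 1 step of the floor in every mouse, whereas Mmp10 ranged from the floor itself in sample 202 to 2 steps above it in samples 175, 176 and 178.

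All 6 Mmp3 values were the same as those of Pdgfa, a growth factor chain whose spot follows that of Mmp3 in the array's numbering (5F and 5G). Neither spot was clear of the floor in any mouse. No other member shared all 6 values with another spot. Whether neighbouring numbers are neighbouring positions is not stated in the labels, and its part in this identity was not tested.

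Mmp11, a protease of stromal cells that is activated inside the cell, gave 0.8, 0.9, 0.9, 0.9, 0.6 and 0.7 per mille, or 1.30 ± 0.118 times the floor (SD, n = 6). Mmp14, the membrane-anchored activator of Mmp2, gave 0.8, 0.7, 0.9, 0.8, 0.6 and 0.9 per mille, or 1.27 ± 0.133 times the floor (SD, n = 6). Mmp14 was the only protease for which sample 203 shared the highest value, while Mmp11, like Mmp9 and Mmp10, was low in both sample 202 and sample 203.

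Other genes of the same pathway, from a list of 29 proteases and regulators, gave no clearer signal. The array held 6 of them, and 0 were clear of the floor in any mouse, beside 54.3% of all spots clear in none. Mmp8, the neutrophil collagenase, equalled the floor on every array, at 1.00 times. Mmp12, the macrophage elastase, stood at 1.05 ± 0.0803 times the floor, and of the plasminogen system, which activates several metalloproteinases, Plau stood at 1.30 ± 0.0522, Plaur at 1.32 ± 0.145, Plat at 1.19 ± 0.268 and Plg at 1.05 ± 0.0803 times (SD, n = 6). On average Mmp3 and Mmp9, as well as Mmp8 and Mmp12, lay within 1 step of the floor.

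Of 22 matrix substrates listed, 9 were on the array and 3 were clear in every mouse, beside 25.6% of all spots. They were fibronectin (Fn1, on its brighter spot), the laminin chain Lamc1 and tenascin-X (Tnxb). The other Fn1 spot stood at 0.967 ± 0.0816 times the floor (SD, n = 6) and was clear in no mouse. At the lowest ratios that rounding allows, the brighter Fn1 spot and Lamc1 were clear in 5 mice and Tnxb in 4. Of 20 listed inducers, 8 were measured, and 1 of them, Jun, was clear in every mouse, beside the same 25.6% of all spots. Jun stood at 2.63 ± 0.887 times the floor (SD, n = 6). It was exactly at 2 times in samples 176 and 178 and at 4.33 times in sample 203, and at the lowest ratios that rounding allows it was clear in 4 mice. Jun is a part of the AP-1 factor that binds the element shown above for Mmp3 and Mmp10. Junb, another part of that factor, stood at 0.972 ± 0.0680 times the floor (SD, n = 6) and was clear in no mouse. The cytokines Il1b and Il6 and the growth factors Pdgfa, Pdgfb and Fgf2 were clear in none, and Tgfb1, which induces Timp1 and Timp3 in many cells, in 4 of 6 mice. The single measured fibroblast marker, Pdgfra, was clear in 2 mice. Rounding would allow from 1 to 6 clear mice for Tgfb1 and from 0 to 4 for Pdgfra. In tissue RNA, fewer cells of a type and less RNA per cell cannot be told apart.

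As deposited, spread over the mice was ordinary for this array. The SD of log2 signal had a median of 0.27 over the 9 members and of 0.27 over all 223 spots. Among proteases it ran from 0.20 for Mmp9 to 0.37 for Mmp3, and among inhibitors from 0.16 for Timp2 to 0.28 for Timp3. A single step of the values is worth 0.23 on the log2 scale at the mean level of Mmp3 and 0.08 at that of Timp3. Mmp2, Mmp3 and Mmp9 took 3 distinct values in 6 mice, Mmp10, Mmp11, Mmp14, Timp1 and Timp3 took 4, and Timp2 took 5. Leaving out sample 202 lowered the SD of every member, and their median to 0.13, beside 0.20 over all spots. With arrays divided by their floor the median was 0.15 over the members and 0.20 over all spots.

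**Figure D2:**
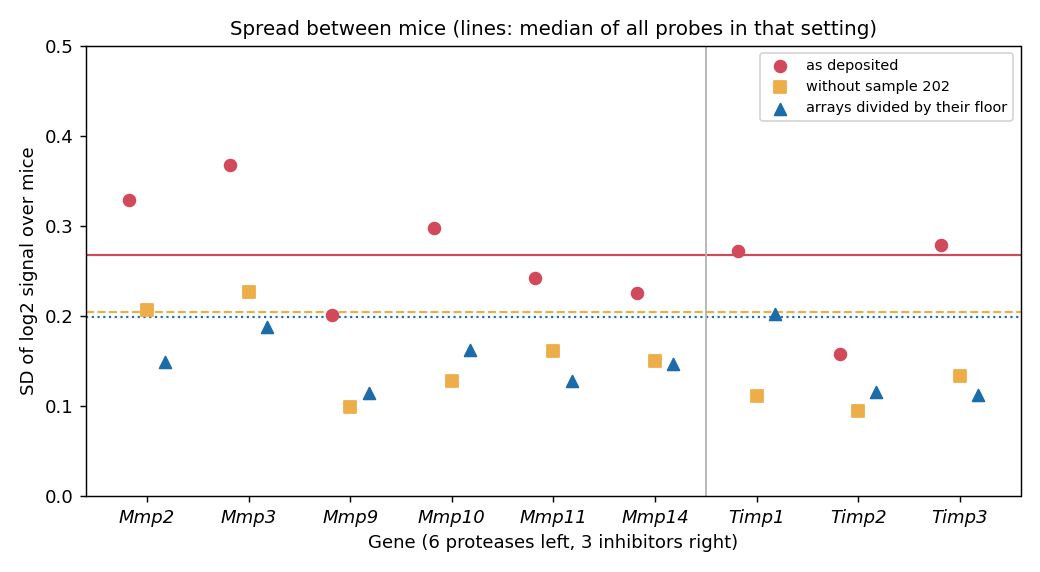
SD of log2 signal over mice for each of the 9 genes (points), as deposited (n = 6), without sample 202 (n = 5) and with each array divided by its floor (n = 6), with lines for the median of all 223 spots in the same setting. All members fall when sample 202 is left out, and Mmp3 is highest both with it (0.37) and without it (0.23).

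As deposited, proteases and inhibitors were on average low together in sample 202 and high together in samples 177 and 178. All 9 members had their lowest value in sample 202 and in no other, a pattern that 50.7% of all spots and 66.9% of the spots clear in no mouse also showed. Among the other listed genes it was shown by 6 of 6 proteases and regulators, 5 of 10 substrate spots and 6 of 8 inducers. Of the cell markers, the 1 for fibroblasts, the 1 for fat cells and 1 of 5 for endothelium showed it, and 0 of 7 for fibres. Taking each spot's log2 deviation from its own mean, the proteases averaged -0.48 in sample 202 and the inhibitors -0.44, while in samples 177 and 178 the proteases stood at 0.22 in both and the inhibitors at 0.13 and 0.14. Samples 175 and 176 lay near 0 for both classes, at 0.04 and 0.03 for proteases and 0.04 and 0.04 for inhibitors.

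Sample 203 was where the classes parted most, with proteases at -0.04 and inhibitors at 0.09. The difference of inhibitors minus proteases ran from -0.10 in sample 177 to 0.12 in sample 203, a range of 0.22, against a range of 0.70 for the proteases and 0.57 for the inhibitors themselves. As deposited, the classes thus moved together by more than they parted. This depended on sample 202 and on the floor. Without sample 202 the range was 0.26 for the proteases and 0.10 for the inhibitors. With arrays divided by their floor it was 0.25 and 0.26. The difference kept its range of 0.22 in both settings by arithmetic alone. Division shifts both classes alike within an array. Samples 177 and 203 were the ends of the difference, so leaving out sample 202 could not change its range.

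The floor of the arrays moved in the same way. Its log2 deviation was 0.19 in samples 177 and 178, -0.29 in sample 202 and -0.03 in the other 3, and spots clear in no mouse averaged 0.18, 0.20 and -0.35 in samples 177, 178 and 202. Spots clear in every mouse averaged -0.07 in sample 202. Once each array was divided by its floor, the proteases stood at -0.19 and the inhibitors at -0.14 in sample 202, and at 0.03 and -0.06 in samples 177 and 178. The SD of the class means over mice fell from 0.26 to 0.10 for proteases and from 0.22 to 0.10 for inhibitors. The part of the floor in the shared movement was not tested beyond these values.

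**Figure D3:**
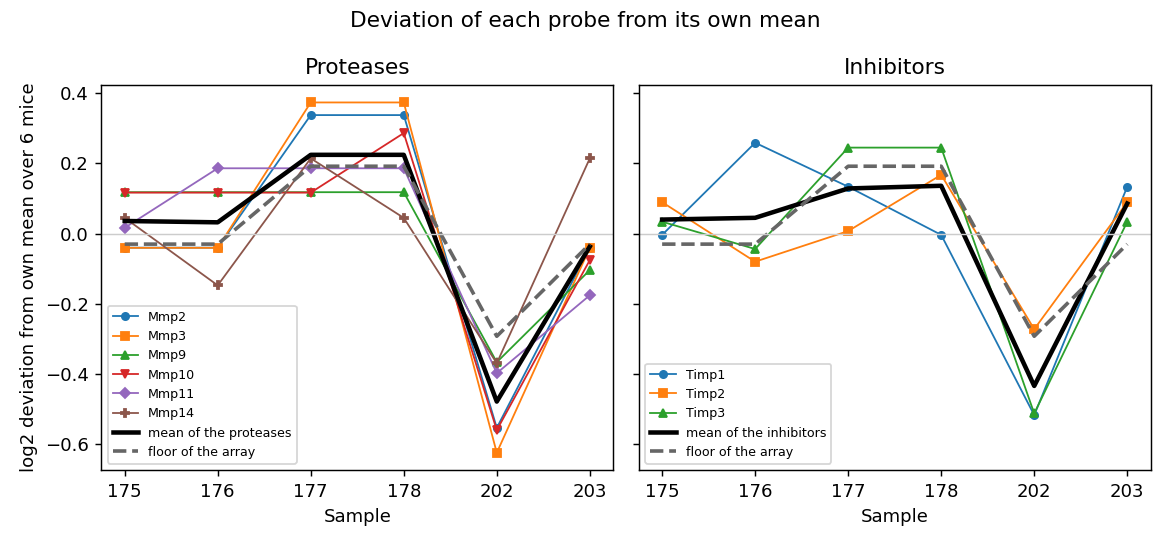
Log2 deviation of each protease (left) and inhibitor (right) from its own mean over 6 mice, by sample in order of title number, with the class mean (thick black) and the floor of the array (dashed grey). Class means and floor are highest in samples 177 and 178 and lowest in sample 202, where the proteases average -0.48, the inhibitors -0.44 and the floor lies at -0.29.

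Pairs of members correlated positively over the 6 mice. The 36 pairs had a median Pearson r of 0.82, from 0.48 for Mmp11 with Mmp14 to 1.00 for Mmp2 with Mmp3, with a median of 0.87 among proteases, 0.77 among inhibitors and 0.81 between the classes. These points share arrays, steps and floor, and the median was 0.37 over all 24753 pairs of spots but 0.71 over pairs of spots clear in no mouse. In exact permutation tests over the 720 pairings, two-sided, 8 of 36 pairs had an unadjusted p under 0.05 with positive r, or 22.2%, against 12.2% of all pairs on the array and 23.0% of pairs among spots clear in no mouse. After Benjamini-Hochberg adjustment over all pairs 0 passed, as for 0% of the array.

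Correlation within the protease and inhibitor set depended on the floor and on sample 202. With arrays divided by their floor the median r was 0.25, and 27 of 36 pairs were above 0, beside 0.08 for spots clear in no mouse. Without sample 202 (n = 5) it was 0.34, and 24 of 36 pairs were above 0, beside 0.49 for spots clear in no mouse. Pairs with deviations taken within the runs of title numbers, 175 to 178 and 202 with 203, had a median of 0.80. In that setting it was 0.77 for spots clear in no mouse and 0.48 over all spots.

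**Figure D4:**
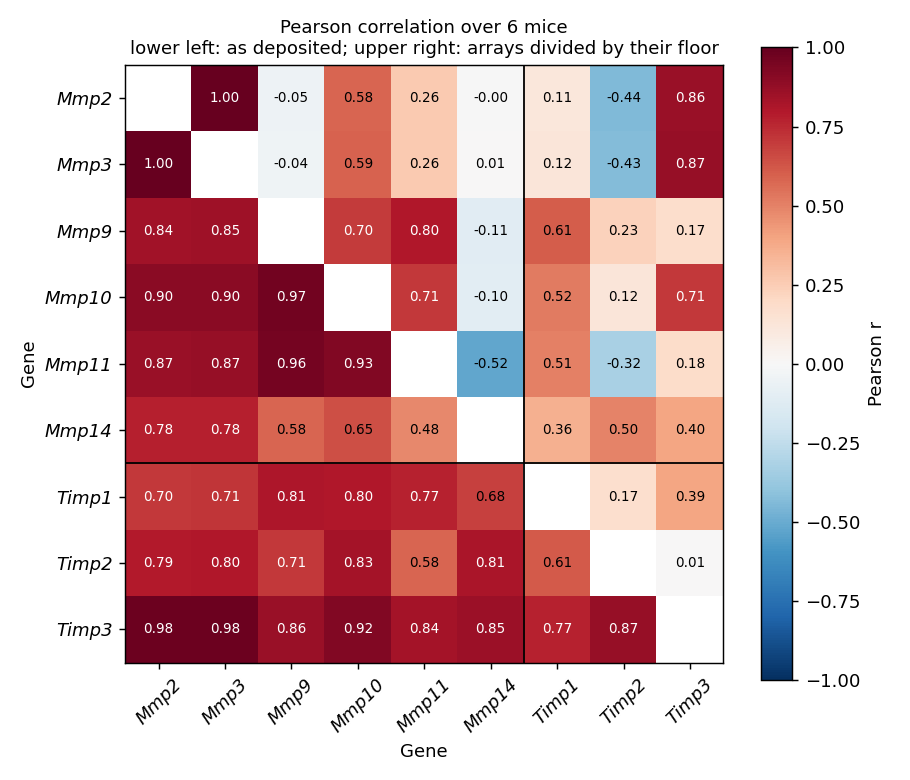
Pearson correlation of log2 signal over 6 mice for each pair of the 9 genes, as deposited (lower left) and with arrays divided by their floor (upper right), with black lines between proteases and inhibitors. All 36 pairs are positive as deposited, with a median of 0.82, and 27 are positive after division, with a median of 0.25.

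The gelatinase Mmp2 and the stromelysin Mmp3 followed the same course in all 6 mice, a low value in sample 202, a high one in samples 177 and 178 and a common middle value in the rest. Their correlation was r = 1.00 and rho = 1.00 (exact permutation p = 0.0167 for each, adjusted p = 0.254 over all pairs, n = 6). The floor of the arrays was also lowest in sample 202, highest in samples 177 and 178 and at a common value in the rest, and neither gene was clear of it in any mouse. The spots of Mmp2 and Mmp3 also follow one another in the array's numbering (5E and 5F), and the part of this was not tested. Without samples 178 and 202, which with 177 lay farthest from the median, sample 177 alone differed from the others in both genes, so r over the rest carries no information. Timp3 was likewise lowest in sample 202 and highest in samples 177 and 178. Mmp2 with Timp3 gave r = 0.98 and rho = 0.95 (exact permutation p = 0.0167 for each, adjusted p = 0.254, n = 6), and r was 0.97 without sample 202 and 0.86 with arrays divided by their floor. This pair is described because its r was among the highest, and with Mmp2 at 3 distinct values it rests on samples 177, 178 and 202.

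Timp2 and Timp3, the inhibitors read clear of the floor, correlated at r = 0.87 and rho = 0.75 (exact permutation p = 0.0444 and 0.0833, adjusted p = 0.306 over all pairs, n = 6). Without samples 176 and 202, the farthest from the median of Timp2, r was -0.02, and with arrays divided by their floor it was 0.01. Without sample 202 alone r was 0.48, and with deviations taken within the runs of title numbers it was 0.86. The value of r for Timp2 with Timp3 thus depended on the samples kept and on division by the floor.

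The spots most like Timp3 over the 6 mice, among the 54 other named spots clear of the floor in every mouse, were the laminin chain Lamc1 (r = 0.98, rho = 0.97, exact permutation p = 0.00556 and 0.0111, adjusted p = 0.254, n = 6), Igf2r, the receptor that clears Igf2 and sorts lysosomal enzymes (r = 0.98), and Timp2 (r = 0.87). Without sample 202 r was 0.92 for Igf2r and 0.48 for Timp2, and with arrays divided by their floor it was 0.44 and 0.01. Lamc1 gave from 1.1 per mille in sample 202 to 2.8 in sample 177, and its r with Timp3 was 0.99 without sample 202 and 0.89 with arrays divided by their floor. Those most like Timp2 were Timp3, Fn1 (r = 0.84) and Lamc1 (r = 0.82), and without sample 202 these fell to 0.48, 0.28 and 0.42. With arrays divided by their floor they were 0.01, 0.64 and -0.35. All these spots were ranked by r, so the values are descriptions.

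Samples 202 and 203 carry title numbers apart from the run 175 to 178, and over all 223 spots 14 differed between the runs (6.28%, limma, adjusted p at most 0.05). This number was 8, 5, 20, 11, 0 and 2 without samples 175, 176, 177, 178, 202 and 203 in turn. Division of each array by its floor gave 22. Of the 9 members 0 did, and 4 had an unadjusted p under 0.05 in limma against 22.9% of all spots. All 9 were lower in samples 202 and 203 on average, with a median log2 difference of -0.36 against -0.18 over all spots and -0.25 over spots clear in no mouse. For Mmp9, Mmp10 and Mmp11 both samples lay below the other 4, as for 13.9% of all spots, with Mmp10 at -0.48 ± 0.20 (log2 difference ± SE, limma adjusted p = 0.154, n = 2 and 4). The other 3 proteases and all 3 inhibitors overlapped between the runs. Timp1, Timp2 and Timp3 lay at -0.29 ± 0.21, -0.14 ± 0.19 and -0.36 ± 0.20 (limma adjusted p = 0.392, 0.650 and 0.268). With quantile normalization Timp3 passed (limma adjusted p = 0.0466). Without sample 202, which leaves sample 203 alone in its run with a spread assumed like that of the others, 6 of 9 members were lower.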

How the data were processed

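Radioactive cDNA made from soleus RNA of 6 mice with gene-specific primers was read on 1 array per mouse, per the labels' protocols. The deposited table holds linear signal for 223 spots; how it was scanned, background-corrected and normalized is not given in the sources used here. Without spots 1M and 1O the values of an array sum to about 1, so they were multiplied to parts per mille. No value is at or below 0, and log2 was taken with no pseudocount. Array annotation named 205 spots, 204 of them found by gene number in RefSeq (GRCm38.p6).

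All samples form 1 group. The number of arrays limits the precision, and p-values measure only the spread between these samples. Pairs of spots were tested by exact permutation and the number runs with limma 3.58.1 (lmFit and eBayes on all 223 spots), both with Benjamini-Hochberg adjustment. The tests were checked on simulated data. For limma the simulated shifts were larger than the difference of any member between the number runs. Whether limma could find differences as small as those was not tested. How far that check carries over to spots that share floor movement and steps, as here, was not tested. All 9 members were named, with the 3 most correlated clear spots for each clear member and measured genes of fixed lists. Members, lists and the 2-fold limit were chosen with earlier results of these data known.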

Additional observations from a re-analysis of the deposited data

Results flagged for a closer look

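Of 11 sets of 6 values (the log2 signals of the 9 members and the mean deviations of each class), 3 had 1 mouse farther from its neighbour, as a share of the whole range, than the limit of 0.625 of Dixon's test for 6 values. Chance flags about 1 in 20 separate sets, and these are not separate, since they share arrays and the class means hold the members. In all 3 the mouse was sample 202, as the lowest. The gap was 0.662 of the range for Timp1, 0.628 for the mean deviation of the proteases and 0.831 for that of the inhibitors. Sample 202 also had the lowest floor, 0.5 per mille, and the lowest median of all spots, 0.8 per mille. The part of either in these gaps was not tested.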

How the results depend on the processing

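The count of 2 members clear of the floor in every mouse, Timp2 and Timp3, was 2 with the floor at the 5th or 25th percentile, at 1.5 times the floor, at either bound of rounding, without samples 202 and 203 and without each mouse, and 0 at 3 times the floor. The median SD of the members was 0.19 with arrays centred on their median, 0.15 with quantile normalization, 0.15 with arrays divided by their floor, 0.16 with a pseudocount of 0.6 per mille, 0.13 as a median absolute deviation and 0.13 without samples 202 and 203, and from 0.13 to 0.30 without each mouse. In the order of settings named before that range, the median over all spots was 0.20, 0.17, 0.20, 0.15, 0.19 and 0.18. The median correlation of the pairs was 0.52 with arrays centred, 0.41 with quantile normalization, 0.25 with arrays divided by their floor and 0.49 without samples 202 and 203. In the same order it was 0.31, 0.016, 0.08 and 0.71 over pairs of spots clear in no mouse. For the members it ran from 0.34 to 0.90 without each mouse. The SD of the mean deviation of the proteases was 0.16 with arrays centred, 0.0918 with quantile normalization, 0.10 with arrays divided by their floor, 0.33 with 50% of the floor subtracted, 0.14 with a pseudocount, 0.11 without samples 202 and 203 and from 0.12 to 0.29 without each mouse. For the inhibitors it was 0.11 with arrays centred, 0.10 with arrays divided by their floor, 0.0522 without samples 202 and 203 and from 0.0452 to 0.24 without each mouse. Between the number runs 1 member, Timp3, passed with quantile normalization (limma adjusted p = 0.0466), and 0 in the other settings, of which leaving out the dimmest 25% of spots kept 7 members, and without each mouse. The causes were not tested. No paired analysis was possible because there is 1 group. The alternatives that leave out samples 202 and 203 together and the rounding bounds were added after the data were seen, other than for the correlation. Steps of 0.1 per mille and signals near the floor limit all protease values.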
